A study of Mus musculus with 12 samples.

Results

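The transcripts of 41 genes that mark macrophages and monocytes, the phagocytes of tissue and blood, were followed in the kidney cortex of mice with and without glomerulonephritis. They were taken by gene symbol from a list drawn up with earlier results of these data known, and 41 of 41 were among the 24452 symbols of the deposited count table. Of these, 6 mark leukocytes in general and 19 mark macrophages and other myeloid cells. A further 6 are genes of resident macrophages, 5 are genes of lipid-handling macrophages, 4 mark monocytes or encode leukocyte integrins, and Csf1 encodes a macrophage growth factor. A filter on low counts kept 40 of the 41, and Vsig4 did not pass it.

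The samples were 12 libraries of stranded mRNA sequencing from C57BL/6 mice, all labelled adult and male, with 3 libraries in each of 4 groups. Control_water and Control_captopril are saline-injected mice that drank water or received captopril, an inhibitor of angiotensin-converting enzyme whose dose was not in the labels. GN_water and GN_captopril are mice with glomerulonephritis (GN), immune injury of the kidney's filtering units. It was induced over 6 weeks with horse spleen apoferritin (10 mg on 5 days of each week) and lipopolysaccharide (100 micrograms, 3 doses each week), and kidneys were taken at week 9. Lipopolysaccharide itself activates macrophages, so the disease groups received both an antigen and an innate stimulus, and the labels describe no group with only 1 of these agents. The titles carry pairs of numbers that may be pools of mice, so p-values measure the spread between libraries.

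Macrophages of the kidney descend from embryonic precursors and from blood monocytes, and both depend on the receptor encoded by Csf1r and its ligands. Resident cells take up debris and soluble proteins through scavenger receptors such as those encoded by Cd163, Mrc1 and Stab1. Macrophages laden with lipid, as found in atheroma and injured organs, are known for Trem2, Gpnmb, Apoe, Lpl and Lgals3. Several members are not restricted to macrophages: adipocytes and muscle make Lpl, liver and astrocytes make Apoe, tubule epithelium can make Lgals3, and neutrophils also carry Itgam and Lyz2.

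Total counts per library ran from 14173432 to 22842783. Proximal tubule markers, which define the cortex, summed to between 6416 and 12057 CPM in each library, where CPM are counts scaled to a common library total. In GN averaged over treatments, 4 of 5 proximal tubule markers were lower and 5 of 5 red blood cell markers were higher, with median log2 fold changes of -0.25 and 0.54. The sex-linked transcripts and renin did not all follow the labels. Y-linked transcripts (4 genes, 121 to 144 CPM in sum) were found in the libraries with the labels Control_water or GN_captopril. Xist, at 181 to 375 CPM, was found in those with the labels Control_captopril or GN_water. Ren1, which is known to rise under captopril, averaged 1339.9 ± 395 CPM in Control_water and 543 ± 132 in GN_captopril, but 74.8 ± 10.1 in Control_captopril and 24.8 ± 4.90 in GN_water (SD over 3 libraries). Groups are named as labelled throughout. In GN averaged over both treatments, each side holds 3 Y-bearing and 3 Xist-bearing libraries, and in GN_water against Control_captopril and GN_captopril against Control_water both sides bear the same marker. The results below rest on these 3 comparisons. The levels still differed within them: Ren1 was lower in GN in all 3 (log2 -1.45, -1.59 and -1.30, each called by edgeR), and Xist was lower in GN_water than in Control_captopril (-0.78).

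Across both treatments, 37 of the 40 tested members were higher in GN than in control libraries and 0 were lower. Of all 14618 genes, 16.3% were higher and 14.6% lower (edgeR's quasi-likelihood test, adjusted p under 0.05). Clec4n, Gpnmb and Trem2 could pass the filter on low counts only through GN libraries. A higher call was thus favoured for them in advance, in this and the later counts. At least 2-fold higher were 32 members, against 5.35% of all genes. The median log2 fold change was 1.65 over the members and -0.01 over all genes. In 32 members each of the 6 GN libraries lay above each of the 6 control libraries, as was so for 5.38% of all genes. The 8 members whose groups overlapped were Cd163, Trem2, Lgals3, Apoe, Lpl, Folr2, Lyve1 and Itgax, of which 7 are resident or lipid-handling genes. In whole cortex, more cells of a type and more RNA per cell cannot be told apart.

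**Figure D1:**
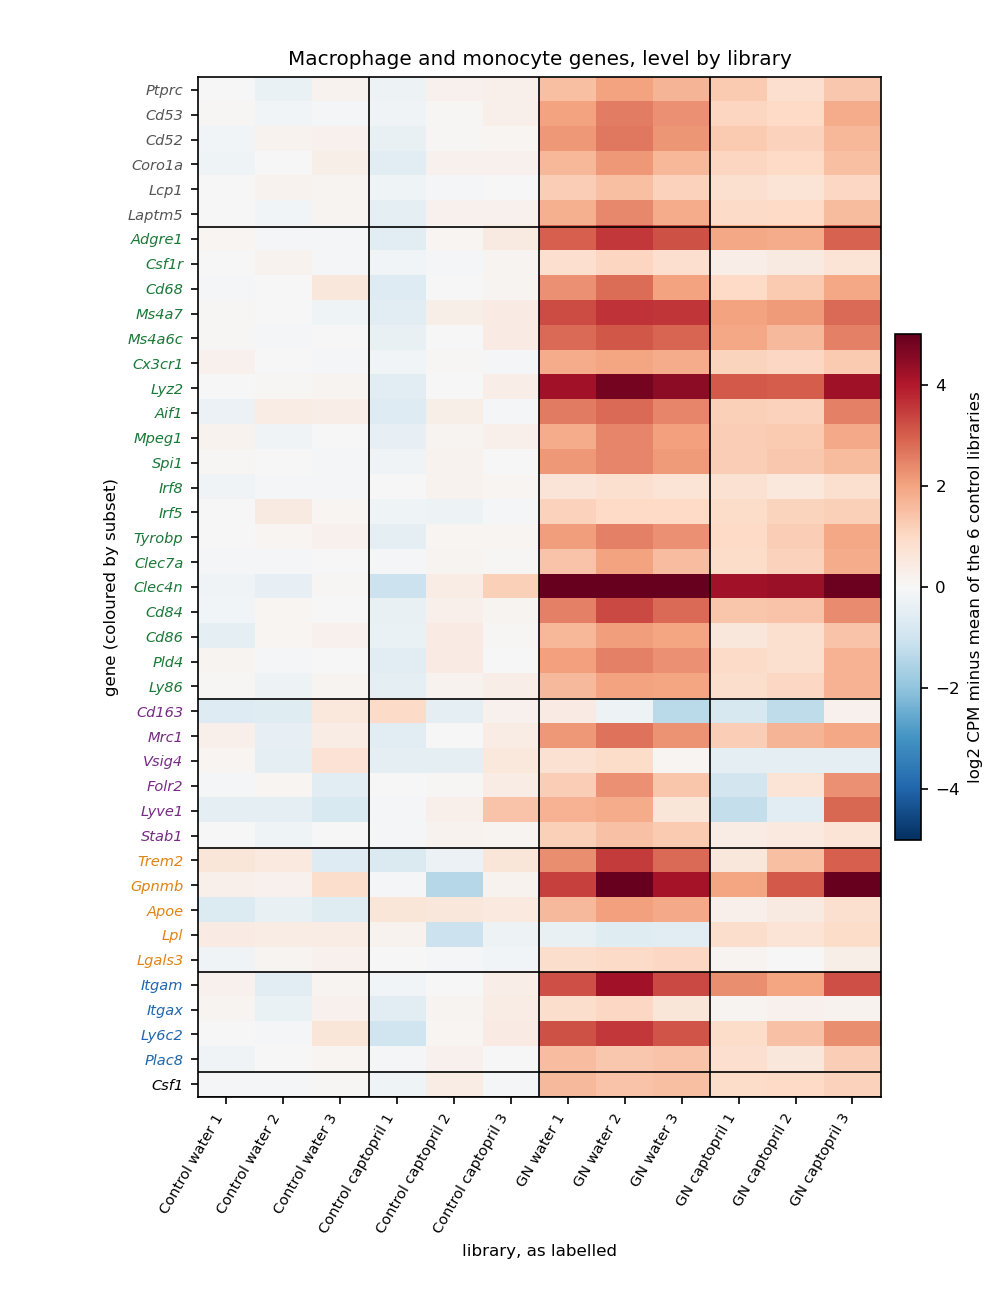
Log2 CPM of each of the 41 genes (rows, coloured and separated by subset) in each of the 12 libraries (columns), minus the mean of the 6 control libraries; red is higher, blue is lower, and the colour scale ends at -5 and 5. The GN columns are red for most genes, and Cd163, Vsig4, Folr2, Lyve1 and Lpl are rows without a common shift.

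The general leukocyte genes rose together: 6 of 6 were higher in GN and 6 were at least 2-fold higher, with log2 fold changes between 1.08 and 1.88 and a median of 1.56. Ptprc encodes CD45, the phosphatase present on nucleated blood cells. It stood at 11.7, 9.41 and 13.5 CPM in Control_water, 10.1, 13.9 and 14.3 in Control_captopril, 34.6, 48.6 and 38.7 in GN_water and 29.6, 21.8 and 31.1 in GN_captopril. All GN values were above all control values, and the log2 fold change was 1.46 ± 0.13, adjusted p = 3.18e-06, with the number after ± the standard error (SE) here and below. Cd52, a small surface glycoprotein of lymphocytes and myeloid cells, went from 7.31, 8.98 and 9.28 CPM in Control_water and 6.24, 8.34 and 8.55 in Control_captopril to 36.6, 51.2 and 37.2 in GN_water and 20.1, 17.9 and 25.5 in GN_captopril. It showed the largest change of the 6 (1.88 ± 0.12, adjusted p = 6.82e-07). Lcp1, the actin-bundling plastin of leukocytes, showed the smallest (1.08 ± 0.08, adjusted p = 1.02e-06). The tetraspanin gene Cd53 (1.83), Coro1a, which encodes an actin-binding coronin (1.52), and the lysosomal Laptm5 (1.61) lay between them on the log2 scale.

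Leukocytes other than macrophages carry these 6 genes too, and most of their tested markers moved in the same direction. B and plasma cell markers summed to between 5.54 and 12.8 CPM in controls, 42.8 to 104 in GN_captopril and 189.9 to 627 in GN_water, with 5 of 6 genes higher. T and natural killer cell markers summed to 3.86 to 7.84 CPM in controls and 17.3 to 38.1 in GN, with 6 of 6 higher. Neutrophil markers summed to 1.48 to 3.52 CPM in controls and 6.20 to 11.6 in GN, with 3 of 3 tested genes higher. Most of the GN sum was Csf3r. The listed Ly6g, Retnlg and Cxcr2 were too low to be tested and showed no such rise. Cxcr2, the highest of them, had 0.179 to 0.387 CPM in controls and 0.275 to 0.452 in GN. Dendritic cell markers summed to 8.62 to 10.6 CPM in controls and 10.8 to 14.3 in GN, with 3 of 5 higher. Proximal tubule markers summed to 7931 to 8187 CPM in Control_captopril and 6416 to 7091 in GN_water (3 of 5 genes lower). They summed to 10541 to 12057 CPM in Control_water and 8647 to 10345 in GN_captopril (0 of 5 called). Red blood cell markers summed to 746 to 1788 CPM in controls and 923 to 1877 in GN. The part of these cells in the members' changes was not tested.

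All 19 genes of macrophages and other myeloid cells were higher in GN, 17 of them at least 2-fold, with a median log2 fold change of 1.85. The range ran from 0.70 for Csf1r to 5.79 for Clec4n. Adgre1 encodes the F4/80 antigen of mature mouse macrophages. Its level was 8.57, 7.52 and 7.74 CPM in Control_water, 5.56, 8.61 and 11 in Control_captopril, 63.9, 93.6 and 73.9 in GN_water and 30.9, 29.0 and 62.4 in GN_captopril. The lowest GN value, 29.0, was above the highest control value, 11, and the fold change was 6.86 (log2 2.78 ± 0.21, adjusted p = 1.35e-06). Csf1r, the receptor for macrophage growth factors, changed least. It stood at 73.4, 83.1 and 70.0 CPM in Control_water, 66.9, 67.8 and 79.9 in Control_captopril, 129.8, 153 and 132 in GN_water and 92.3, 99.5 and 117 in GN_captopril. These groups did not overlap either, at a fold change of 1.62 (log2 0.70 ± 0.07, adjusted p = 1.40e-05).

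Other surface genes of the subset lay between these values on the log2 scale. Ms4a7, a tetraspan membrane protein gene of macrophages, changed by 2.93 ± 0.18, its relative Ms4a6c by 2.53 ± 0.16, and the signalling receptor Cd84 by 2.44 ± 0.22. Cx3cr1 encodes the fractalkine receptor of monocytes and kidney macrophages. It read 9.92, 8.68 and 8.06 CPM in Control_water, 7.72, 8.98 and 8.29 in Control_captopril, 31.1, 33.8 and 31.4 in GN_water and 18.5, 17.8 and 21.6 in GN_captopril, with a log2 fold change of 1.53 ± 0.07, adjusted p = 5.27e-08. The 4 groups form 3 separate levels, with the controls together, GN_captopril above them and GN_water highest. Cd86, the costimulatory ligand of antigen-presenting cells, changed by 1.48 ± 0.19, and Ly86, the partner of a Toll-like receptor relative, by 1.57 ± 0.17. Inside the cell, Cd68 (a lysosomal glycoprotein) changed by 1.93 ± 0.20, Aif1 (an actin-associated protein known as Iba1) by 2.22 ± 0.25, Mpeg1 (a pore-forming protein of phagosomes) by 1.81 ± 0.15 and Pld4 (a nuclease of endolysosomes) by 1.74 ± 0.18.

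Lyz2 encodes lysozyme M, the bacteriolytic enzyme of macrophages and neutrophils. Its values were 31.8, 32.1 and 34.0 CPM in Control_water, 20.9, 32 and 39.6 in Control_captopril, 578, 866 and 701 in GN_water and 263, 257 and 596 in GN_captopril. The fold change was 16.3 (log2 4.02 ± 0.23, adjusted p = 3.56e-07), and GN_captopril replicate 3 lay apart from its 2 fellow libraries and inside the GN_water range. Lyz2 has a close copy, Lyz1, which is known from Paneth cells of the gut. The coding sequences are 95.1% identical, and 20.1% of the 50-base windows of the Lyz2 coding sequence occur in Lyz1, so reads can be shared where the copies do not differ. The first 90 coding bases (GENCODE transcripts, GRCm38) are shown for this reason, with the 7 differing bases in capitals.
Lyz2: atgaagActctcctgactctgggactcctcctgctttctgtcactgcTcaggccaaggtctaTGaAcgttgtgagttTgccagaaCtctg
Lyz1: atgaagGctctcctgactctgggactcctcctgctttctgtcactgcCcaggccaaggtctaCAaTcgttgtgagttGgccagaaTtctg
Lyz1 read 2.28, 1.64 and 3.03 CPM in Control_water, 1.48, 2.21 and 2.02 in Control_captopril, 65.7, 107 and 84.2 in GN_water and 23.5, 22.2 and 64.4 in GN_captopril (log2 fold change 4.73 ± 0.31). Both copies showed the same order of groups, and how much of the Lyz1 count stems from Lyz2 reads was not tested.

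The transcription factor genes of the subset differed in size of change. Spi1 encodes PU.1, the factor that commits precursors to the myeloid lineage. It stood at 3.31, 3.28 and 2.96 CPM in Control_water, 2.78, 3.64 and 3.29 in Control_captopril, 14.7, 17.9 and 14.3 in GN_water and 7.64, 8.34 and 9.69 in GN_captopril (1.85 ± 0.10, adjusted p = 2.47e-07). Irf8, a partner of PU.1 in monocytes and dendritic cells, had 16.2, 18.1 and 18.1 CPM in Control_water, 18.7, 21.3 and 19.7 in Control_captopril, 29.0, 32.5 and 29.8 in GN_water and 31.9, 26.9 and 32.6 in GN_captopril (0.71 ± 0.06, adjusted p = 3.18e-06). Unlike those of Spi1, the ranges of the GN groups overlapped. Irf5, which drives inflammatory cytokine genes in macrophages, had the same shape, with 31.3, 28.4 and 28.6 CPM in GN_water and 26.9, 31.2 and 32.8 in GN_captopril over control values between 11.7 and 19.2 (1.07 ± 0.08, adjusted p = 1.09e-06).

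Tyrobp encodes DAP12, the adaptor through which TREM2 and other receptors signal, and Clec7a and Clec4n encode the C-type lectins Dectin-1 and Dectin-2, receptors for fungal glycans. Tyrobp read 9.08, 9.59 and 10.4 CPM in Control_water, 6.50, 9.67 and 9.66 in Control_captopril, 38.6, 52.2 and 44.6 in GN_water and 18.1, 21.5 and 34.7 in GN_captopril (1.87 ± 0.15, adjusted p = 2.31e-06). Clec7a read 2.98, 3.03 and 3.22 CPM in Control_water, 2.96, 3.45 and 3.29 in Control_captopril, 8.71, 12.9 and 9.34 in GN_water and 5.98, 7.13 and 11.6 in GN_captopril (1.54 ± 0.16, adjusted p = 1.41e-05). Both had GN values wholly above the controls. Clec4n was close to absent in controls, with 2, 1 and 2 counts in Control_water and 0, 4 and 8 in Control_captopril. It reached 8.06, 15.1 and 13.4 CPM in GN_water and 3.92, 4.33 and 6.46 in GN_captopril. Its log2 fold change (5.79 ± 0.36, adjusted p = 5.43e-07) was the largest of the 40 members and rests on those few control counts. Clec4n could pass the filter only through GN libraries.

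The resident genes had the smallest share of called members of the subsets: 3 of 5 tested members were higher, 0 were lower and 2 were at least 2-fold higher. Mrc1, the mannose receptor CD206, led them. It was at 4.24, 2.61 and 4.51 CPM in Control_water, 2.33, 3.50 and 4.55 in Control_captopril, 16.1, 23.4 and 17.1 in GN_water and 8.30, 11.5 and 13.6 in GN_captopril, with no overlap and a log2 fold change of 2.0 ± 0.18, adjusted p = 4.91e-06. Stab1, a scavenger receptor shared by macrophages and sinusoidal or lymphatic endothelium, read 20.2, 17.2 and 19.7 CPM in Control_water, 19.2, 22.5 and 22.2 in Control_captopril, 46.4, 56.2 and 49.3 in GN_water and 26.3, 28.6 and 32.8 in GN_captopril (0.93 ± 0.07, adjusted p = 1.54e-06). Its GN values were above all controls. Lymphatic endothelium markers summed to 22.4 to 29.7 CPM in controls, 30.3 to 35.1 in GN_water and 22.6 to 24.6 in GN_captopril. Of their genes, 0 of 5 were called in GN averaged over treatments. Blood endothelium markers summed to 283 to 352 CPM in controls, 370 to 389 in GN_water and 297 to 336 in GN_captopril. Of these, 2 of 5 were higher and 1 was lower. The part of endothelium in the Stab1 level was not tested.

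Folr2, a folate receptor of tissue macrophages, was at 0.931, 1.03 and 0.645 CPM in Control_water, 0.987, 1.01 and 1.26 in Control_captopril, 2.43, 5.06 and 2.67 in GN_water and 0.465, 1.59 and 5.09 in GN_captopril. The GN_captopril libraries thus spanned values below, above and far above the controls, and the log2 fold change was 1.53 ± 0.42, adjusted p = 0.0138. Without the 3 libraries richest in adipocyte markers it was 0.79 (adjusted p = 0.0795). Of the exonic bases of Folr2, 63.1% lie opposite exons of Gm10602 on the other strand, and whether the counting used strand is not given. Such an overlap also covers 53.1% of the exonic bases of Ms4a6c (BE692007) and 15.1% of those of Csf1r (Hmgxb3). It covers 14.5% in Cd52 (Crybg2), 14.1% in Irf5 (Tnpo3) and at most 5.58% in the remaining members. Lyve1, a hyaluronan receptor of perivascular macrophages and lymphatic vessels, ranged from 0.129 to 0.961 CPM in controls, with 1.19, 1.32 and 0.494 in GN_water and 0.0664, 0.165 and 2.73 in GN_captopril. The range within GN_captopril exceeded the difference between groups (1.68 ± 0.70, adjusted p = 0.0857).

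Cd163, the haemoglobin scavenger receptor, was the only tested member with a negative log2 fold change. It stood at 0.233, 0.243 and 0.645 CPM in Control_water, 0.897, 0.276 and 0.506 in Control_captopril, 0.596, 0.329 and 0.0988 in GN_water and 0.199, 0.110 and 0.502 in GN_captopril (-0.59 ± 0.49, adjusted p = 0.400). Controls and GN covered the same low range, at no more than 0.897 CPM. Vsig4, a complement receptor of resident macrophages on chromosome X, was nearly absent, with 5 counts over the 6 control libraries and 8 over the 6 GN libraries, the latter all in GN_water. No change in Cd163 or Vsig4 was detectable at this depth.

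The lipid-handling genes split. Trem2, Gpnmb, Apoe and Lgals3 were higher in GN, 3 of them at least 2-fold, and Lpl was not called. Trem2, the lipid-sensing partner of DAP12, read 0.605, 0.546 and 0.193 CPM in Control_water, 0.179, 0.276 and 0.607 in Control_captopril, 2.25, 5.18 and 3.26 in GN_water and 0.598, 1.21 and 3.59 in GN_captopril (2.63 ± 0.45, adjusted p = 6.89e-04). The lowest GN_captopril library, at 0.598 CPM, lay within the control range. Gpnmb, a transmembrane glycoprotein of lysosome-rich macrophages, stood at 0.372, 0.364 and 0.645 CPM in Control_water, 0.269, 0.0461 and 0.354 in Control_captopril, 4.17, 15.6 and 7.07 in GN_water and 1.46, 3.24 and 19.0 in GN_captopril (4.70 ± 0.71, adjusted p = 2.78e-04). Every GN value was above every control value, yet the lowest and highest GN libraries, 1.46 and 19.0 CPM, were in the same group.

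Apoe, the apolipoprotein of lipid efflux and uptake, differed already between the control groups. It was at 214, 268 and 224 CPM in Control_water, 523, 512 and 486 in Control_captopril, 1068, 1410.2 and 1269 in GN_water and 406, 476 and 606 in GN_captopril. Within the pairs that share sex-linked markers, GN libraries were above controls without overlap (log2 1.30 ± 0.13 for GN_water against Control_captopril and 1.08 ± 0.14 for GN_captopril against Control_water). Across all 12 libraries GN_captopril and Control_captopril covered overlapping ranges, and the averaged log2 fold change was 1.19 ± 0.10, adjusted p = 2.06e-06.

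Lgals3 encodes galectin-3, a lectin of activated macrophages. It stood at 37.6, 46.7 and 49.8 CPM in Control_water, 42.2, 41.0 and 38.1 in Control_captopril, 78.8, 81.2 and 87.2 in GN_water and 46.3, 43.2 and 52.4 in GN_captopril. Only the GN_water libraries stood clear of all controls, and the averaged log2 fold change was 0.55 ± 0.07, adjusted p = 5.98e-05. Collecting duct markers were also highest in GN_water, at 492.5 to 642 CPM in sum. They summed to 323 to 441 CPM in Control_water, 356 to 429 in Control_captopril and 317 to 376 in GN_captopril. The part of tubule epithelium in the Lgals3 level was not tested. Lpl, the lipase that releases fatty acids from lipoproteins, had another order than Lgals3 altogether. It was at 961, 955 and 940.4 CPM in Control_water, 815, 349 and 619 in Control_captopril, 570.3, 477 and 494 in GN_water and 1339, 1184 and 1392 in GN_captopril. The Y-bearing groups were high and the Xist-bearing groups low, and the averaged GN change was 0.12 ± 0.15, adjusted p = 0.566.

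**Figure D2:**
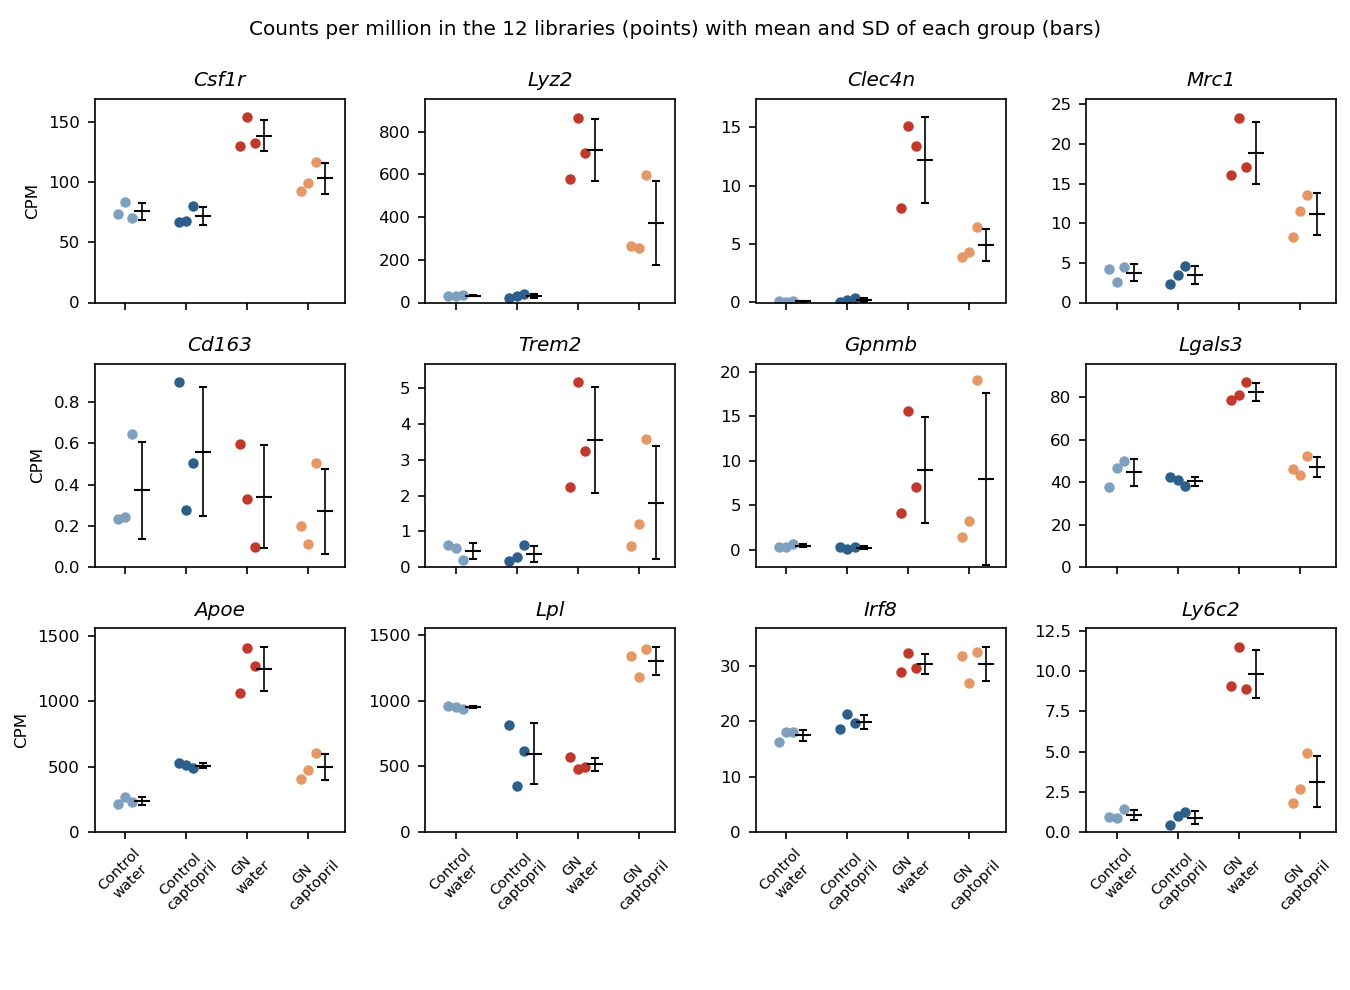
CPM (vertical axes, each to its own scale) of 12 members in the 4 groups as labelled, with 1 point per library and a bar for the mean ± SD of 3 libraries. Csf1r, Lyz2, Clec4n, Mrc1 and Ly6c2 run from low controls to intermediate GN_captopril and high GN_water, while Irf8 is alike in both GN groups, Cd163 overlaps throughout, and Lpl is highest in GN_captopril.

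All 4 monocyte and integrin genes were higher in GN, 3 of them at least 2-fold. Itgam encodes CD11b, the integrin subunit of monocytes, neutrophils and many macrophages. It stood at 2.51, 1.46 and 2.38 CPM in Control_water, 1.93, 2.17 and 2.78 in Control_captopril, 20.9, 41.3 and 22.1 in GN_water and 11.3, 8.72 and 21.1 in GN_captopril (3.14 ± 0.26, adjusted p = 2.92e-06). Itgax encodes CD11c, the subunit of dendritic cells and some macrophages. Its values were 4.28, 3.03 and 4.51 CPM in Control_water, 2.65, 4.24 and 5.11 in Control_captopril, 7.24, 7.98 and 5.88 in GN_water and 4.25, 4.50 and 4.38 in GN_captopril (0.49 ± 0.15, adjusted p = 0.0299). The GN_captopril values lay inside the control range, and leaving out 1 library at a time raised the adjusted p above 0.05 in 6 of 12 cases, to between 0.0506 and 0.0788. The read-through gene Gm49368, on the same strand, shares 91.8% of the 50-base windows of the Itgam transcript and is not a symbol of the count table. Plac8, a small cysteine-rich protein of monocytes and other leukocytes, changed by 1.18 ± 0.10, adjusted p = 2.97e-06, with no overlap.

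Ly6c2 encodes the Ly-6C antigen that marks inflammatory monocytes. It was at 0.884, 0.850 and 1.42 CPM in Control_water, 0.404, 0.967 and 1.21 in Control_captopril, 9.07, 11.6 and 8.90 in GN_water and 1.79, 2.63 and 4.88 in GN_captopril (2.54 ± 0.27, adjusted p = 1.45e-05). The neighbouring copy Ly6c1 is expressed by endothelium, and 46.7% of the 50-base windows of the Ly6c2 coding sequence occur in it. The first 90 coding bases (GENCODE transcripts, GRCm38) show how little separates the copies at their start, with the 6 differing bases in capitals.
Ly6c2: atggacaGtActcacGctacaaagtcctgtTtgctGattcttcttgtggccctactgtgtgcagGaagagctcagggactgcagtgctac
Ly6c1: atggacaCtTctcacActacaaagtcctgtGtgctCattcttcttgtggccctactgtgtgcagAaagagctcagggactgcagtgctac
Ly6c1 stood at 57.8, 61.6 and 62.4 CPM in Control_water, 72.0, 79.4 and 83.9 in Control_captopril, 94, 91.9 and 101 in GN_water and 68.6, 66.3 and 70.8 in GN_captopril (log2 fold change 0.23 ± 0.05). Ly6c2 thus changed on another scale than its copy, but its count remains uncertain where reads could be divided between them.

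Csf1 encodes the growth factor that maintains macrophages, and tubule cells are a known source in injured kidney. Its level was 8.89, 9.10 and 9.86 CPM in Control_water, 8.21, 12.1 and 8.85 in Control_captopril, 29.3, 25.5 and 27.3 in GN_water and 17.7, 19.0 and 21.3 in GN_captopril, with no overlap and a log2 fold change of 1.27 ± 0.09, adjusted p = 1.02e-06. Il34, which encodes the other ligand of the CSF1 receptor, stood at 19.1, 22.4 and 29.7 CPM in Control_water, 5.29, 6.72 and 7.64 in Control_captopril, 15.5, 15.8 and 18.3 in GN_water and 38.3, 37.2 and 40.8 in GN_captopril. Within each marker-matched pair Il34 was higher in GN (log2 1.34 ± 0.16 and 0.71 ± 0.14), while the Y-bearing groups lay above the Xist-bearing groups in both states.

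Further genes of the same pathways were counted in 5 lists, to be read against the 16.3% of all genes that were higher and the 14.6% that were lower. Of 13 genes for receptor ligands and lineage factors other than the members, 6 were higher in GN and 2 lower. Those higher included Il34, the interferon regulatory factor gene Irf4 (2.41), Runx1 (1.34), Cebpb (0.63) and Zeb2 (0.30), and lower were Cebpa (-0.18) and Tfec (-0.51). Of 13 genes for signalling below TREM2, the Dectins and DAP12, 12 were higher and 0 lower. Those higher included the Src-family kinase Fgr (2.12), the Fc receptor gamma chain gene Fcer1g (2.10) and the kinase Syk (1.99), and the phospholipase gene Plcg2 (-0.01) was the exception. Irf4 stood at 5.73, 17.6 and 5.63 CPM in GN_water and Syk at 14.4, 38.4 and 19.4. Both peaked in GN_water replicate 2, where B and plasma cell markers summed to 627 CPM, against 223 and 190 in its fellow libraries. The part of B and plasma cells in the Irf4 and Syk levels was not tested.

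In the list of lipid uptake, storage and efflux, 4 of 16 genes were higher and 1 was lower, shares not far from those of all genes. The scavenger receptor gene Msr1 (log2 fold change 3.06) and the phospholipid transfer protein gene Pltp (2.0) were at least 2-fold higher. Soat1, which esterifies cholesterol (0.24), and the lysosomal cholesterol carrier Npc2 (0.20) rose by less, and the acid lipase gene Lipa fell by 0.36. Cd36, Abca1 and Abcg1, which take up or export lipid, were not called (0.11, -0.20 and 0.19). Kidney tubules also express many of these genes.

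Of 9 tested genes for clearance of dead cells and for the resident programme, 6 were higher and 0 lower. Siglec1, the sialic acid receptor CD169, rose from 0.745, 0.728 and 0.902 CPM in Control_water and 0.314, 0.691 and 0.657 in Control_captopril to 6.96, 8.63 and 9.59 in GN_water and 3.65, 2.41 and 4.59 in GN_captopril. Cd5l (5.40 ± 1.08) and the phosphatidylserine receptor gene Timd4 (5.17 ± 1.28) had large log2 fold changes, and 1 library, GN_water replicate 2, held their highest values, 24.6 and 4.69 CPM. Cd5l had 0, 2 and 2 counts in Control_water and 1, 3 and 1 in Control_captopril. Timd4 had 1, 1 and 0, then 1, 0 and 0, with 2, 0 and 25 in GN_captopril. Both could pass the filter only through GN libraries, and their changes rest on these few control counts. The receptor kinase gene Axl rose (0.64 ± 0.07), and its relative Mertk was not called (-0.08 ± 0.04). Of 10 genes of monocyte recruitment and subsets, 8 were higher and 0 lower. These included Chil3 (3.62), Spn, listed here for patrolling monocytes (1.99), and the chemokine receptor gene Ccr2 (0.52). The Chil3 change rests on 3, 3 and 1 counts in Control_water and 2, 5 and 2 in Control_captopril. T and natural killer cell markers rose by a median of 1.98, and the part of other leukocytes in the Spn level was not tested.

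To compare the subsets with each other, 16 members were set against Csf1r as a ratio within each library (log2 CPM with a prior count of 2, exact permutation of 6 GN and 6 control libraries over 924 splits, two-sided, smallest possible p = 0.00217). Adjusted over the 16 ratios, 8 differed. Gpnmb rose relative to Csf1r by 3.21, Itgam by 2.34, Mrc1 by 1.29 and Ptprc by 0.76 (adjusted p = 0.00866 each, exact permutation). Ly6c2 rose by 1.73 (adjusted p = 0.0139), Trem2 by 1.59 (0.0231) and Plac8 by 0.47 (0.0247), and Cd163 fell relative to Csf1r by 1.21 (0.0346). Each of the resident, lipid-handling and monocyte subsets thus held members whose rise relative to Csf1r passed the threshold and members that did not pass. Stab1, Folr2, Lyve1, Vsig4, Apoe, Lpl, Lgals3 and Itgax gave adjusted p-values between 0.10 and 0.784 (exact permutation). Not passing does not show an equal change. Apoe (0.48) and Folr2 (0.46) rose about as much as Plac8 but varied more between libraries.

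The sign of such a ratio depends on its denominator, because Adgre1 and Ptprc rose more than Csf1r. Relative to Adgre1, the ratio was negative for Mrc1 (-0.75), Trem2 (-0.45), Ly6c2 (-0.31), Plac8 (-1.57) and Ptprc (-1.28), and relative to Ptprc it was negative for Plac8 (-0.29). Gpnmb and Itgam kept a positive ratio with all 3 denominators. For Gpnmb it was 1.16 relative to Adgre1 (adjusted p = 0.0533, exact permutation) and 2.45 relative to Ptprc (0.00928), and for Itgam it was 0.30 (0.0717) and 1.58 (0.00541). Cd163 kept a negative ratio that passed the threshold with all 3, at -3.25 relative to Adgre1 (0.00385) and -1.97 relative to Ptprc (0.00541). Cd163 stood at few counts in every library, so its ratios carry the prior count and largely follow the rise of the denominators. Vsig4, which did not pass the filter, likewise gave -2.66 relative to Adgre1 (adjusted p = 0.00385, exact permutation) and -1.38 relative to Ptprc (0.00541). These ratios are therefore no sign of a fall in either gene.

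**Figure D3:**
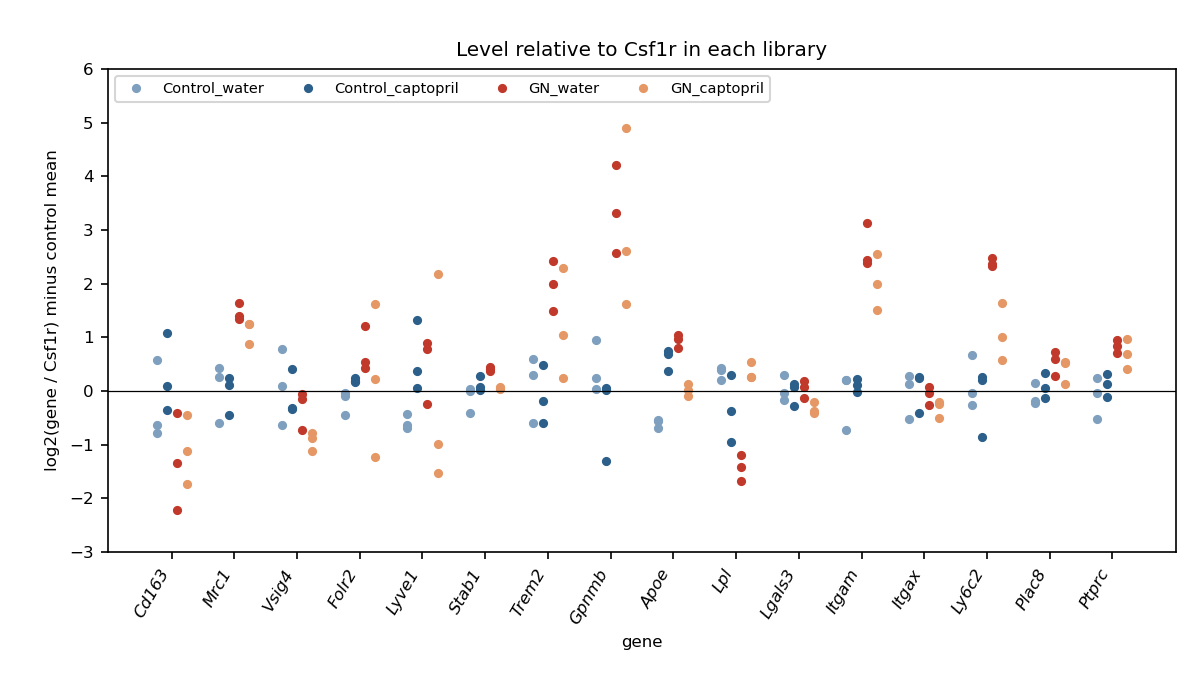
Log2 ratio of each of 16 genes (horizontal axis) to Csf1r in the 12 libraries, minus the mean of the 6 controls (vertical axis), with 1 point per library coloured by group. The points of Gpnmb and Itgam in GN lie above all their control points, those of Stab1, Lgals3 and Itgax stay near 0, and those of Folr2 and Lyve1 in GN_captopril spread on both sides of 0.

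The pairs of groups that share sex-linked markers share no libraries with each other, and both gave the same direction for most members. In GN_water against Control_captopril, 37 of 40 members were higher and 0 lower, against 16.9% and 13.2% of all genes, with a median log2 fold change of 1.99. In GN_captopril against Control_water, 33 were higher and 0 lower, against 7.05% and 5.02% of all genes, with a median of 1.31. The 33 genes were higher in both pairs. The other 4 passed in the GN_water pair alone, namely Folr2 (1.64 and 1.41), Trem2 (3.34 and 1.91), Lgals3 (1.03 and 0.08) and Itgax (0.82 and 0.15). Without GN_captopril replicate 3, the count in the GN_captopril pair was 29, and Gpnmb was no longer called there (log2 2.39, adjusted p = 0.0616).

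A difference between these pairs is, by construction, the captopril label averaged over disease with its sign turned and its size multiplied by 2, and was therefore tested. It reached the threshold for 6 members, lower with the captopril label and so larger in the GN_water pair, and for 0 in the other direction, against 3.34% and 3.17% of all genes. The 6 were Cx3cr1 (averaged log2 change -0.42 ± 0.07), Cd52 (-0.56 ± 0.12), Lgals3 (-0.47 ± 0.07), Spi1 (-0.43 ± 0.10), Lcp1 (-0.33 ± 0.08) and Stab1 (-0.32 ± 0.07). Folr2, Trem2 and Itgax were not among them (adjusted p = 0.897, 0.392 and 0.206), so their different calls are not a tested difference. At an unadjusted p under 0.05 there were 26 lower and 1 higher, and DESeq2 called 11 lower. The share of all genes under these rules was not determined, so neither count sets the members apart. The edgeR count of 6 became 20 without GN_captopril replicate 3 and 3 without GN_water replicate 2. It also fell to 3 without each of Control_water replicate 2, Control_water replicate 3, GN_captopril replicate 1 and Control_captopril replicate 1. Ren1 went against the captopril label in the controls, so the label and the drug cannot be equated in this average.

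**Figure D4:**
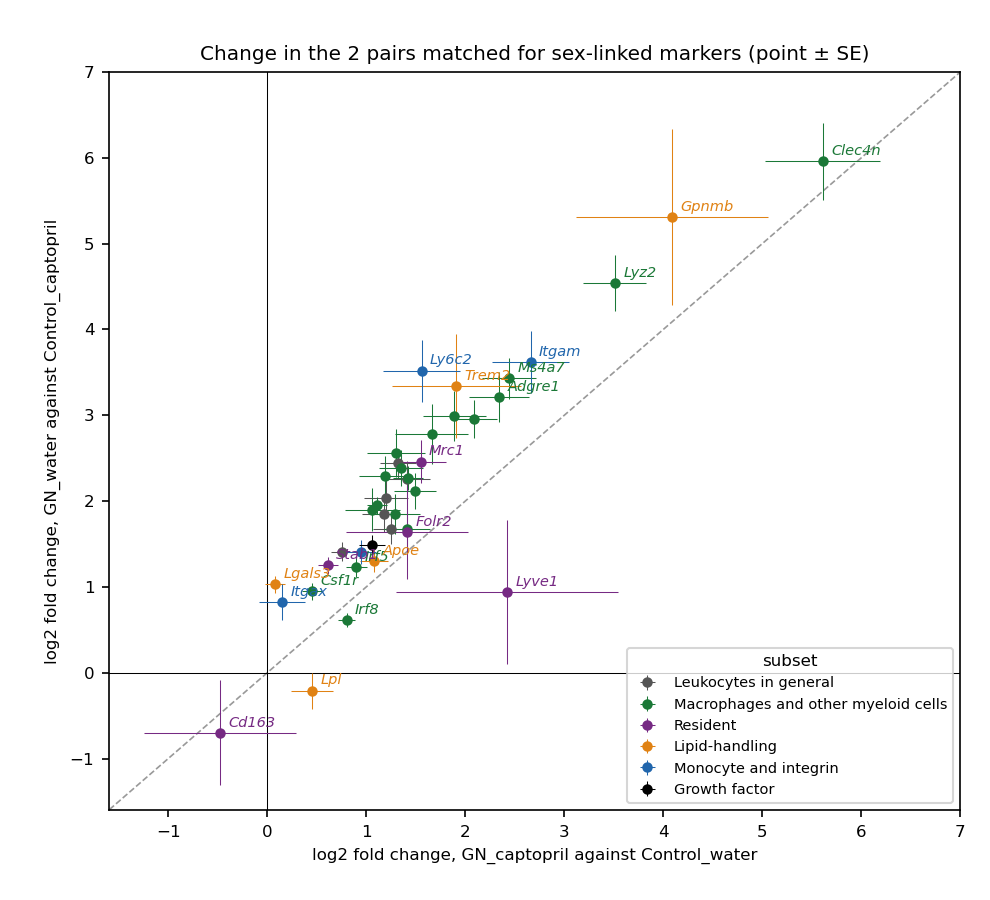
Log2 fold change in GN_captopril against Control_water (horizontal axis) and in GN_water against Control_captopril (vertical axis) for 40 members, with SE bars, coloured by subset; the dashed line marks equal change. Most points lie above the line, Irf8, Lpl, Lyve1 and Cd163 lie below it, and Lgals3 and Itgax lie near 0 on the horizontal axis only.

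Between the diseased groups, 31 members were lower and 1, Lpl, was higher in GN_captopril than in GN_water, against 25.5% and 19.6% of all genes. The median log2 difference was -0.80 over the members and -0.05 over all genes. This comparison sets Y-bearing against Xist-bearing libraries, so the treatment label and the sex-linked markers cannot be told apart in it. The largest falls were in Ly6c2 (-1.68 ± 0.31), Apoe (-1.33 ± 0.13), Clec4n (-1.32 ± 0.30), Cd84 (-1.15 ± 0.26) and Ms4a7 (-1.13 ± 0.21). Lpl was higher by 1.34 ± 0.21. Irf8 and Irf5 did not differ detectably (0.00 ± 0.08 and 0.04 ± 0.10), and Clec7a, Cd163, Folr2, Lyve1, Trem2 and Gpnmb were not called. By subset the medians were -0.75 for leukocyte genes, -0.89 for macrophage and myeloid genes, -0.54 for resident, -0.80 for lipid-handling, and -0.87 for monocyte and integrin genes.

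In 23 of 40 members every GN_captopril library lay above all 6 controls and below all 3 GN_water libraries, a pattern found in 2.75% of all genes. They were 6 of 6 leukocyte genes, 12 of 19 macrophage and myeloid genes, 2 of 6 resident genes (Mrc1 and Stab1), 2 of 4 monocyte and integrin genes (Ly6c2 and Plac8), and Csf1. No lipid-handling gene, 0 of 5, followed this order.

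The libraries within each GN group also differed. GN_captopril replicate 3 held the highest value of its group in 39 of 40 members, against 36.1% of all genes, and GN_water replicate 2 in 34 of 40, against 36.5%. Adipocyte markers, of which 5 were listed, were highest in the same 2 libraries of those groups. They summed to 0.399, 36.8 and 106 CPM in GN_captopril and to 28.3, 47.6 and 1.63 in GN_water, with 19.2 to 48.7 in Control_captopril and 6.55 to 26.9 in Control_water. The summed markers of B and plasma cells (104 and 627 CPM), of T and natural killer cells (23.6 and 38.1 CPM) and of neutrophils (8.90 and 11.6 CPM) were also highest of their groups in GN_captopril replicate 3 and GN_water replicate 2. Adrenal cortex markers reached 122 CPM in GN_captopril replicate 3 and 357 in Control_captopril replicate 3, against 1.20 to 20.0 CPM in the other 10 libraries. Without GN_captopril replicate 3, 36 members were lower in GN_captopril than in GN_water, with calls gained by Trem2 (log2 -1.95, adjusted p = 0.00530), Gpnmb (-1.91, 0.00965), Folr2 (-1.68, 0.00780), Lyve1 (-3.01, 0.00587) and Clec7a (-0.65, 0.00879). Without GN_water replicate 2 the count was 20. The averaged GN comparison depended less on them, and 36 members were higher without either library. There were 37 without the 2 libraries richest in adrenal transcripts, and 36 without the 3 libraries richest in adipocyte markers. GN_captopril replicate 2, at 20.0 CPM of adrenal markers, was kept in the former setting. The part of these tissues and cells in the members' levels was not tested.

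The comparisons named by a shared treatment label cross the sex-linked markers and share libraries with those above. In GN_water against Control_water 37 members were higher and 1, Lpl, was lower, against 27.4% and 23.9% of all genes. In GN_captopril against Control_captopril 34 were higher and 0 lower, against 20.5% and 19.3%, and the members not called were Cd163, Folr2, Lyve1, Apoe, Lgals3 and Itgax. Lpl was higher in the latter (log2 1.13 ± 0.21) and lower in the former (-0.89 ± 0.21). Apoe was higher in GN_water against Control_water (2.41 ± 0.14), with -0.03 ± 0.13 in GN_captopril against Control_captopril.

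Between the control groups, 1 member was higher and 2 were lower in Control_captopril than in Control_water, against 15.4% and 17.0% of all genes. They were Apoe (log2 1.11 ± 0.14, adjusted p = 3.59e-05), Irf5 (-0.37 ± 0.11, adjusted p = 0.0229) and Lpl (-0.68 ± 0.21, adjusted p = 0.0221). Of the general leukocyte genes 0 of 6 were called, and Csf1r differed by -0.08 ± 0.10. The interaction, which asks whether the GN change differed by treatment label, was negative for 17 members and positive for 2, Irf5 and Lpl, against 27.1% and 23.6% of all genes (50.7% in either direction). With these 4 groups it equals 2 times the difference between the Y-bearing and the Xist-bearing mean, so label and sex-linked markers cannot be told apart. It was largest for Apoe (-2.44 ± 0.19, adjusted p = 2.53e-07) and Lpl (2.02 ± 0.29, adjusted p = 7.43e-05).

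Because PU.1, the product of Spi1, is known to bind promoters of myeloid genes, the 250 bases before the RefSeq start sites (GRCm38.p6) were searched for the letters GAGGAAG on both strands. A promoter entry was found for 32 member genes, 43 entries in all. The letters occurred in 6 entries (14%), of the genes Itgam, Laptm5, Ly6c2, Mrc1 and Trem2, against 10.6% of 32851 promoter entries of all genes. The letters TCACNTG of the MiT family of lysosomal regulators, which do not overlap them, occurred in 2 entries (4.65%), of Lgals3 and Mrc1, against 14.2%. The shares are thus near or below those of all promoters. The promoters of Itgam and Trem2, which had the largest averaged log2 fold changes of these 5 genes (3.14 and 2.63), are shown on the plus strand 5′ to 3′, with the PU.1 letters or their reverse complement in capitals. In Itgam (chr7:128062390-128062639) the match begins 84 bases before the start site, and in Trem2 (chr17:48346151-48346400) it begins 41 bases before it.
Itgam: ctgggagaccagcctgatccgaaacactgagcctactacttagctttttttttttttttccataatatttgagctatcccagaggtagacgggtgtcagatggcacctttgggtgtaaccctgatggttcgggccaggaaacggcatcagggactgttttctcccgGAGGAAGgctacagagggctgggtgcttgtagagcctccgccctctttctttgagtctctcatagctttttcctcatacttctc
Trem2: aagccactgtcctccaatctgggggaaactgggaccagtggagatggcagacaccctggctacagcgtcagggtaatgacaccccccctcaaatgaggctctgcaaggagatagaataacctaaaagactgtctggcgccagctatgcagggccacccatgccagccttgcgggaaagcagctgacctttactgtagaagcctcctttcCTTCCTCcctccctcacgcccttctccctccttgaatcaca
A match of letters is a description, not a binding site.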

How the data were processed

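Kidney cortex RNA was sequenced as 12 stranded mRNA libraries, grouped by the labels into 4 groups of 3. The authors deposited expected counts per gene symbol, of which 85.1% to 87.5% of the values in each library were exactly whole, with no tolerance, and RPKM values per symbol. The build mm10 and the tools Bowtie2 and Partek are named in the submitters' processing notes. Versions, annotation and strand setting of the counting: not given in the sources used here. Expected counts were rounded, genes were kept by filterByExpr (minimum count 10, minimum total 15), scaled by TMM and fitted over all 12 libraries with 1 mean per group in edgeR 4.0.16 (quasi-likelihood, R 4.3.3), with Benjamini-Hochberg adjustment over 14618 genes and a threshold of 0.05. SE was derived from the F statistic, and CPM used TMM-adjusted totals. CPM compare 1 gene between libraries, not genes with each other. Depth was 14173432 to 22842783 counts per library, and limits on low counts cover counting error only.

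The 41 members, their subsets, the pathway lists, the marker lists and the tests were chosen with earlier results of these data known. All 41 members were eligible to be named, with pathway genes named among those called or as exceptions. Same-numbered libraries did not deviate together (18 pairs, correlations -0.24 to 0.24), so replicate numbers were not used as pairs. Alternatives were DESeq2 1.42.0, other scalings and filters, limma 3.58.1 on log2(RPKM + 0.1), a replicate block and leaving out libraries. In data simulated from these libraries the fit was tested before use. GENCODE vM21 transcripts gave windows and coding identity. Positions and promoters came from RefSeq, and figures from matplotlib 3.10.9.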

Additional observations from a re-analysis of the deposited data

Results flagged for a closer look

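In 80 groups of 6 libraries (the controls and the GN libraries of each member with enough counts), 2 held a library far from the others, and chance flags about 1 in 20. Tyrobp was at 6.51 CPM in Control_captopril replicate 1 and between 9.08 and 10.4 in the other 5 controls. Lyve1 was at 0.961 CPM in Control_captopril replicate 3, which also held adrenal transcripts, and between 0.129 and 0.368 in the other 5.

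The GN change differed by treatment label, by the interaction term, in 19 of the 40 tested members. This share is near the 50.7% of all genes, so the count in either direction does not set the members apart. On the log2 scale the leukocyte genes gave -0.72 for Ptprc, -1.08 for Cd53, -0.84 for Cd52 and -0.87 for Laptm5. The macrophage and myeloid genes gave -1.27 for Ms4a7, -0.94 for Ms4a6c, -0.64 for Cx3cr1, -1.20 for Cd84, -1.10 for Cd86, -0.89 for Spi1, -1.08 for Pld4 and 0.41 for Irf5. Among the resident genes Stab1 gave -0.95, and among the lipid-handling genes Apoe gave -2.44, Lgals3 -0.66 and Lpl 2.02. Ly6c2 gave -1.40, Plac8 -0.65 and Csf1 -0.57. The treatment label and the sex-linked markers cannot be told apart in this term.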

How the results depend on the processing

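In GN averaged over treatments 36 to 38 members were higher when each library was left out in turn (0 lower), and 36 to 38 with DESeq2, RPKM with limma, a replicate block or without doubtful libraries. Folr2 lost its call with RPKM and limma (0.68, adjusted p = 0.0756), and Lyve1 gained one with DESeq2 (1.72, 0.0392).

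Leaving out each library in turn gave these ranges of members higher and lower: 35 to 37 and 0 to 1 in GN_water against Control_captopril, 29 to 35 and 0 in GN_captopril against Control_water, 36 to 38 and 1 in GN_water against Control_water, 32 to 35 and 0 in GN_captopril against Control_captopril. They were 1 and 20 to 36 in GN_captopril against GN_water, 1 and 0 to 3 between the controls, 1 to 2 and 10 to 30 in the interaction, and 0 to 1 and 3 to 20 for captopril averaged over disease. The counts over all genes higher and lower ranged, in GN averaged over treatments, from 2007 to 2371 and 1773 to 2341, in GN_water against Control_captopril from 1744 to 2631 and 1317 to 2224, and in GN_captopril against Control_water from 597 to 1007 and 360 to 740. For GN_water against Control_water they were 3197 to 4095 and 3127 to 3631, for GN_captopril against Control_captopril 2439 to 3120 and 2343 to 3062, for GN_captopril against GN_water 2458 to 3076 and 2540 to 3894. For the controls they were 1816 to 2337 and 2028 to 2548, for the interaction 3195 to 3511 and 3292 to 4053, and for captopril averaged over disease 239 to 756 and 217 to 715. Of the ratios to Csf1r 7 to 8 passed.

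Scaling by library totals alone, without TMM, shifted the median gene by up to -0.25 (interaction), 0.20 (GN_water against Control_water), -0.14 (GN_captopril against GN_water) and 0.11 (between controls). It moved the share of higher calls from 52.7% to 78.2% in GN averaged, 53.4% to 81.1% in GN_water against Control_water, 51.6% to 40.9% in GN_captopril against Control_captopril, 43.5% to 22.4% in GN_captopril against GN_water, 47.5% to 72.0% between controls, 46.5% to 23.1% in the interaction, 48.7% to 38.4% for captopril averaged, 56.2% to 77.8% in GN_water against Control_captopril and 58.4% to 79.1% in GN_captopril against Control_water. With library totals alone, genes lower numbered 931 in GN averaged, 1575 in GN_water against Control_water (6758 higher), 6001 in GN_captopril against GN_water (1731 higher), 1532 between controls (3933 higher), 6600 in the interaction (1986 higher), 1002 in GN_water against Control_captopril and 354 in GN_captopril against Control_water. RPKM with limma, which has no composition scaling, gave 915, 1596 (6591 higher), 5870 (1751), 1435 (3706), 6534 (1967), 1006 and 304 in the same order. With either, 2 members were higher between controls; 1 member was lower there with totals and 0 with RPKM, and in the interaction 28 and 27 were lower and 1 was higher.

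Without the 2 libraries richest in adrenal transcripts 1 member was lower between controls, 28 were lower and 1 higher in the interaction, and 20 were lower for captopril averaged. In GN_captopril against Control_water, 601 genes were then higher and 337 lower. Without the 3 libraries richest in adipocyte markers (GN_captopril replicate 3, Control_captopril replicate 3 and GN_water replicate 2), a setting chosen after seeing the data, 1 member was higher in the interaction and 16 were lower for captopril averaged. Over all genes there were then 265 lower for captopril averaged, 1640 higher in GN_water against Control_captopril, and, for GN_captopril against Control_water, 630 higher with 239 lower. DESeq2 gave 11 members lower for captopril averaged. With a replicate block 10 members were lower there, the only member count that the block moved by over 1.5 times; no library resembled its own number best (0 of 12). With only the compared groups in the fit, 216 genes were lower in GN_captopril against Control_water. The cause of these changes was not tested, apart from the smaller number of libraries where some were left out.

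Ratios to Csf1r turned negative with Adgre1 as the denominator for Mrc1 (-0.75), Folr2 (-1.58), Lyve1 (-1.86), Stab1 (-1.81), Trem2 (-0.45), Apoe (-1.56), Ly6c2 (-0.31), Plac8 (-1.57) and Ptprc (-1.28), and with Ptprc for Stab1 (-0.53) and Plac8 (-0.29).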

Other observations

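Ms4a6d and Clec4d, close relatives of members, were not among the 41 genes. Ms4a6d, a relative of Ms4a6c with 66.8% coding identity and no shared window of 50 bases, changed by 3.56 ± 0.23, adjusted p = 6.52e-07 on the log2 scale in GN averaged over treatments, against 2.53 ± 0.16 for Ms4a6c. Its levels were 0.605, 0.485 and 0.387 CPM in Control_water, 0.493, 0.691 and 0.860 in Control_captopril, 7.74, 12.5 and 10.8 in GN_water and 4.25, 3.24 and 6.75 in GN_captopril. Clec4d, the lectin gene beside Clec4n, changed by 5.35 ± 0.55, adjusted p = 1.26e-05. It stood at 0, 0.0607 and 0.193 CPM in Control_water, 0.135, 0.0461 and 0.101 in Control_captopril, 3.12, 7.20 and 3.21 in GN_water and 2.06, 1.54 and 5.60 in GN_captopril. Near absent in controls, Clec4d could pass the filter only through GN libraries.

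Within the controls the members also differed between libraries. Control_captopril replicate 3 held the highest value of its group in 23 of 40 members and replicate 1 in 4 of 40, against 33.2% and 34.4% of all genes. In Control_water, replicate 3 was highest in 19 members and replicate 2 in 8, against 31.4% and 32.4%. The general leukocyte gene Lcp1 and the receptor gene Csf1r varied little among the 6 controls, at 39.2 to 51.6 and 66.9 to 83.1 CPM.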
